A study of Mus musculus with 16 samples.

Results

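The Maf locus was taken as the 350 kb of mouse chromosome 8 from 118000000 to 118350000 on build mm9, which hold the gene Maf near 118.2 Mb and its flanks. Every enriched island that overlapped this stretch was included, so members were chosen by position alone. They numbered 203 of the 469755 islands in all lists, with 107 of 229664 for acetylation of histone H3 at lysine 27 (H3K27ac) and 96 of 240091 for DNase. An island is a run of enriched 200-bp windows joined by the peak caller. No gene model on mm9 was used here, so exons, promoter and strand were not placed, and positions are given as lower or higher on the chromosome. In RefSeq's table of another build (GRCm38.p6) the nearest protein-coding neighbours of Maf are Wwox and Dynlrb2, and whether either reaches into the 350 kb on mm9 was not determined.

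The cells were CD4 T cells of C57BL/6 mice with floxed Bcl11b alleles and a CreERT2 recombinase, which is active only with 4-hydroxytamoxifen (4-OHT), and all groups carried both. Late Bcl11b KO and late WT cells went through a first Th2 culture of 4 days, rested for 1 day with IL-2, and then through another Th2 culture of 4 days, in which KO cells received 4-OHT and WT cells did not. Early KO and early WT cells went through a single Th2 culture of 4 days, in which again KO cells alone received 4-OHT. No group kept Bcl11b and received 4-OHT, so the deletion and the drug cannot be told apart. Early KO cells received 4-OHT in their single culture, and late KO cells in the later of their cultures. A late against early difference in KO, called a change with time below, therefore also holds the timing of 4-OHT. The parts of stage and timing cannot be told apart. According to the labels the starting cells were naive, yet the sorting gate they list is CD4+CD44high, and high CD44 is typical of activated cells. They do not say what drives CreERT2, how far Bcl11b was deleted, or whether the 2 replicates of each group came from separate animals or cultures. The p-values therefore measure the spread between these libraries, which may be technical.

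Maf (c-Maf) is a transcription factor of the basic leucine zipper family that binds DNA as a dimer at Maf recognition elements. In T helper cells it activates Il4 in the Th2 lineage and promotes Il10 and Il21 in several lineages. H3K27ac marks active promoters and enhancers, and a gene that is central to a cell's identity often lies in a wide acetylated domain with further acetylated sites in its flanks. DNase cuts chromatin where it is open. The series concerns Bcl11b, a zinc finger protein needed for T cell development that its title describes as binding GATA3, in Th1 and Th2 differentiation. Marker genes of Th2 cells and the deletion of Bcl11b itself were not analysed here.

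Each of the 16 libraries, 8 per assay, was deposited as a list of islands without read counts, so the sequencing depth is unknown and the absence of an island shows only that a list holds none there. The H3K27ac lists were of similar extent, with 26548 to 32112 islands over 100.9 to 111.7 Mb. The DNase lists ranged from 17397 to 39736 islands over 25.9 to 66.8 Mb, and both late KO lists were the shortest, at 25.9 and 26.2 Mb. Cover, the kb of a stretch that lie in islands, was the measure compared.

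Acetylation at the Maf locus was much wider in late than in early cells, in KO and WT alike. Late KO libraries covered 60.2 and 58.2 kb of the 350 kb and late WT libraries 71.2 and 68.2 kb. Early KO libraries covered 38.2 and 35 kb and early WT libraries 26.6 and 30.4 kb. The late lists lay above the early ones without overlap, though the permutation test of these totals did not pass after adjustment. The mean was 64.5 ± 6.24 kb in late and 32.6 ± 5.1 kb in early libraries (SD, n = 4 each, exact two-sided permutation p = 0.0286, the smallest that 4 against 4 allows, and 0.0762 after Benjamini-Hochberg adjustment over 8 such tests). All 8 libraries entered that test, so KO and WT were pooled in each stage. In such bulk samples, more cells with acetylation at a site and more signal per cell cannot be told apart. The locus held 0.0619 ± 0.00737% of the covered length of late lists and 0.0308 ± 0.00489% of early ones (SD, n = 4 each), with the same p-values.

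With the locus treated as one of 4457 windows of 350 kb across the genome, its cover was higher in late than in early cells of both genotypes. The log2 change of (kb + 0.5) was 0.74 ± 0.10 in KO (SE, late KO minus early KO, limma adjusted p = 0.00247) and 1.29 ± 0.10 in WT (SE, late WT minus early WT, limma adjusted p = 0.000131). Of all windows 10.9% rose and 10.1% fell with time in KO, and 17.7% rose and 17.3% fell in WT, and the locus stood at percentile 93.0 and 94.0 of the changes. The difference between late KO and late WT over the window did not pass the test (log2 change -0.31 ± 0.10, SE, limma adjusted p = 0.102), and that between early KO and early WT did not either (0.25 ± 0.10, SE, limma adjusted p = 0.11). In the late comparison 6.89% of all windows rose and 5.88% fell in KO, and in the early one 15.6% rose and 16.3% fell. The interaction, late KO minus late WT less early KO minus early WT, was -0.55 ± 0.14 (SE, limma adjusted p = 0.053) and did not pass the threshold of 0.05, where 4.6% of windows had a higher and 6.08% a lower late difference. It did pass with no centring (0.042), quantile normalization (0.0305), a pseudocount of 2 kb (0.0439) and islands within 1 kb merged (0.0366, limma adjusted p each). Whether the interaction of the window passes thus depends on the setting. The early WT libraries enter both the early KO comparison and the WT time comparison, and the late WT libraries enter both the late KO comparison and the WT time comparison.

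**Figure D1:**
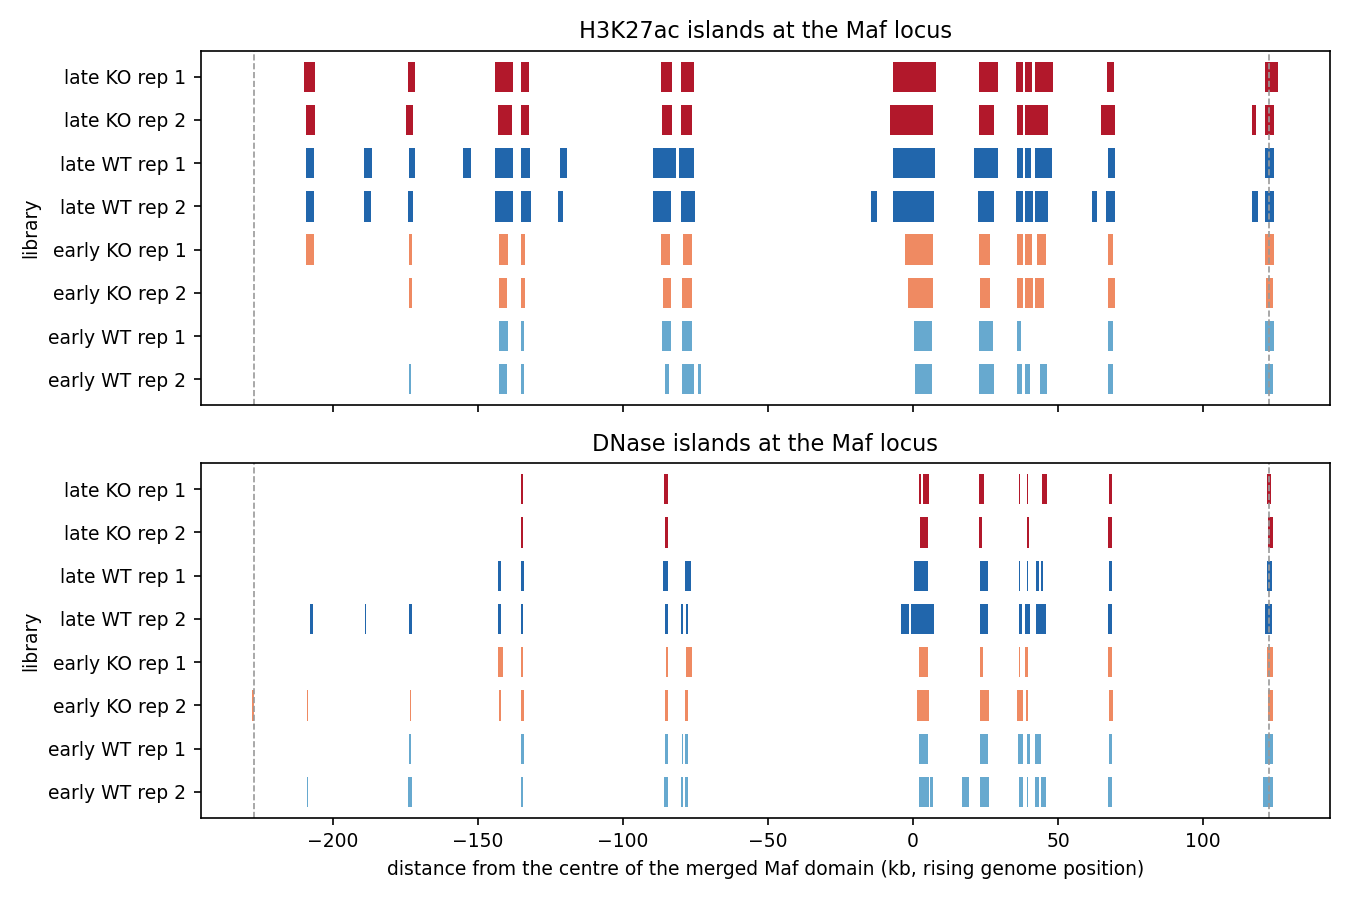
Islands of the 16 libraries at the Maf locus, 1 row per library, with H3K27ac above and DNase below; the x axis is the distance in kb from the centre of the merged Maf domain and dashed lines mark the ends of the 350 kb. H3K27ac islands fall at the same places in most libraries and are mostly wider in late cells, and 2 places on the left hold islands in both late WT libraries and in no other.

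The H3K27ac islands of the 8 libraries merged into 19 regions of 1.2 to 16 kb. Of these, 9 were found in all 8 lists and 4 in 1 list, where over the genome 51.2% of 35909 merged regions were found in all 8. The widest was the region from 118219201 to 118235200, called the Maf domain here for its width and its position near Maf; its overlap with the gene body or promoter was not analysed here. Further regions formed a group from 118017201 to 118154200 on the lower side, and a group from 118248201 to 118296800 on the higher side. Between 118154200 and 118212801 no list of either assay held an island.

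The Maf domain was widest in late cells, and in early cells it was wider in KO than in WT. Its island measured 14.8 and 15.0 kb in the late KO libraries and 14.4 and 14.2 kb in the late WT libraries, against 9.6 and 8.8 kb in early KO and 6.4 and 6.0 kb in early WT. No group overlapped another, and the late KO and late WT widths lay close together. Nearly all of the difference lay at the lower end of the island. Its lower end stood at 118220401 and 118219201 in late KO and at 118220401 in both late WT libraries, at 118224401 and 118225401 in early KO, and at 118227401 and 118227801 in early WT. The other end stayed between 118233800 and 118235200 in all 8 lists, a range of 1.4 kb, where the lower end moved by up to 8.6 kb.

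In a fit over all 31629 merged H3K27ac regions found in at least 2 lists, an analysis added after the data were seen, cover of the Maf domain rose in early KO against early WT, by a log2 of 0.53 ± 0.10 (SE, limma adjusted p = 0.0132). Over the genome 11.1% of regions rose in this comparison. The call was lost with single libraries left out, with adjusted p = 0.0675 without early WT replicate 1, 0.0578 without early WT replicate 2 and 0.0767 without early KO replicate 1 (limma). Cover of the domain also rose with time, by 0.71 ± 0.10 in KO (SE, limma adjusted p = 0.00503) and by 1.18 ± 0.10 in WT (SE, limma adjusted p = 0.000434), where 5.29% and 10.8% of regions rose. No late difference between KO and WT was called there. The interaction was not called either (-0.47 ± 0.14, SE, limma adjusted p = 0.0954), so the KO difference is not shown to differ between stages.

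**Figure D2:**
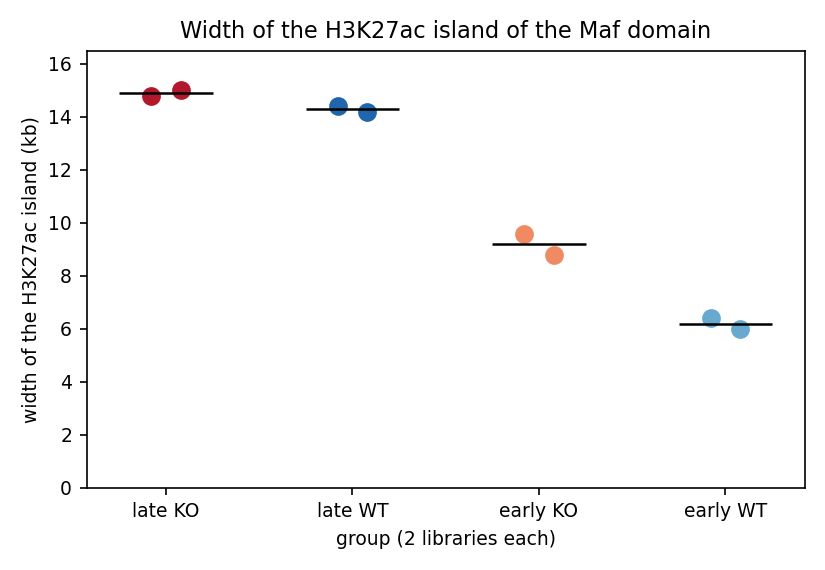
Width in kb of the H3K27ac island of the Maf domain, 1 point per library and a line at the mean of the 2 libraries of each group. Late KO and late WT lie between 14.2 and 15.0 kb, early KO at 8.8 and 9.6 kb and early WT at 6.0 and 6.4 kb.

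The authors' island score, the peak caller's own value, was used only to rank islands within a list. The Maf domain stood at percentile 99.5 of its list in both late KO libraries and 99.6 in both late WT libraries, at 95.8 and 95.0 in early KO and at 86.2 and 84.3 in early WT. By width, 97.4% and 98.2% of islands of the list were narrower in late KO and 97.7% and 98.0% in late WT, against 96.3% and 93.7% in early KO and 86.2% and 87.4% in early WT. The ranks are a description of each list, with no test.

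The main test divided the genome into 10-kb bins, of which 35 lay in the locus, 22 held an H3K27ac island and 20 were covered in at least 2 lists and tested. In early KO against early WT 1 of the 20 bins rose and 0 fell (limma, adjusted p under 0.05), where 9.17% of all 39126 bins rose and 5.43% fell, so the share of the locus is near the background. At an unadjusted p under 0.05, 2 bins were higher and 1 lower. Of the 20 bins 4 held islands in late WT lists alone and so passed the filter only through that group, which fixes their difference from the others. The share of all 39126 bins that are held by late WT alone was not determined, so the 4 are not shown to be particular to the locus. The fit was therefore repeated over the 35625 bins covered in at least 3 lists, 15 of them in the locus, a choice made after the data were seen. There too 1 bin rose and 0 fell in early KO, where 7.57% of bins rose and 3.36% fell. The 1 bin, from 118220001 to 118230000, is the lower part of the Maf domain. It was covered over 5.6 and 4.6 kb in early KO and over 2.6 and 2.2 kb in early WT, a log2 change of 0.91 ± 0.15 (SE, limma adjusted p = 0.00983, and 0.0127 over bins in at least 3 lists), and it kept the call without each of the 8 libraries in turn (limma adjusted p between 0.0117 and 0.035). The neighbouring bin from 118230001 to 118240000 had 4.0 and 4.2 kb in early KO and 3.8 kb in both early WT libraries. Without early WT replicate 2 the count of bins higher in early KO was 4, without early KO replicate 2 it was 2, and without early WT replicate 1 there was also 1 lower bin.

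Other places on the higher side did not pass the test in early cells. The region from 118265801 to 118275600 was covered over 5.4 and 5.6 kb in early KO, and over 0 and 3.8 kb in early WT. The bin from 118260001, which holds its lower part and a neighbouring region, had a log2 change of 0.89 ± 0.27 (SE, limma adjusted p = 0.0907). The region from 118248201 to 118256400 had the opposite order, with 3.8 and 3.6 kb in early KO and 4.8 and 5.0 kb in early WT, and its bin from 118250001 had a change of -0.40 ± 0.12 (SE, limma adjusted p = 0.08). In late cells the first region held 9.0 and 7.8 kb in KO and 7.8 and 7.2 kb in WT, and the second 6.6 and 5.4 kb in KO and 8.2 and 5.4 kb in WT. On the lower side the region from 118017201 to 118021200 was covered in 1 early KO library, over 2.6 kb, and in no early WT library.

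In late KO against late WT no bin covered in at least 3 lists was called, among 15 tested (limma, adjusted p under 0.05), where 3.22% of all such bins rose and 1.78% fell. At an unadjusted p under 0.05, 1 was lower and 0 higher. With the filter of 2 lists 3 of 20 bins were called lower and 0 higher, where 2.76% of all bins fell and 3.99% rose, but all 3 are among the 4 that passed through late WT alone, so this count is no test and is given as a description.

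The 4 bins were listed at 0 in both late KO libraries and in all 4 early libraries. The bin from 118030001 to 118040000 was covered over 2.2 and 2.0 kb in late WT, by an island from 118037801 to 118040600 in replicate 1 and from 118038001 to 118040200 in replicate 2, whose ends gave the next bin, from 118040001, 0.6 and 0.2 kb. The bin from 118100001 to 118110000 was covered over 2.6 and 1.4 kb in late WT. The bin from 118130001 to 118140000 was covered over 2.4 kb in both late WT libraries.

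The last of these bins belongs to a region present in all 8 lists, from 118137601 to 118145600, whose lower end reached 118137601 in both late WT libraries. The region was covered over 3.6 and 3.4 kb in late KO and over 8.0 and 6.2 kb in late WT, against 3.0 and 2.6 kb in early KO and 3.2 and 1.2 kb in early WT. In the merged-region fit neither late KO minus late WT passed there (log2 change -0.91 ± 0.34, SE, limma adjusted p = 0.254) nor the interaction (limma adjusted p = 0.2). Its islands stood at percentiles 73.0 and 73.2 of the late WT lists by score. The islands at the other places ranked low, at percentiles 10.7 and 20.8 for that from 118037801 and 5.9 and 19.7 for that from 118105001, and neither was left when each list was cut to its upper 50% by score.

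**Figure D3:**
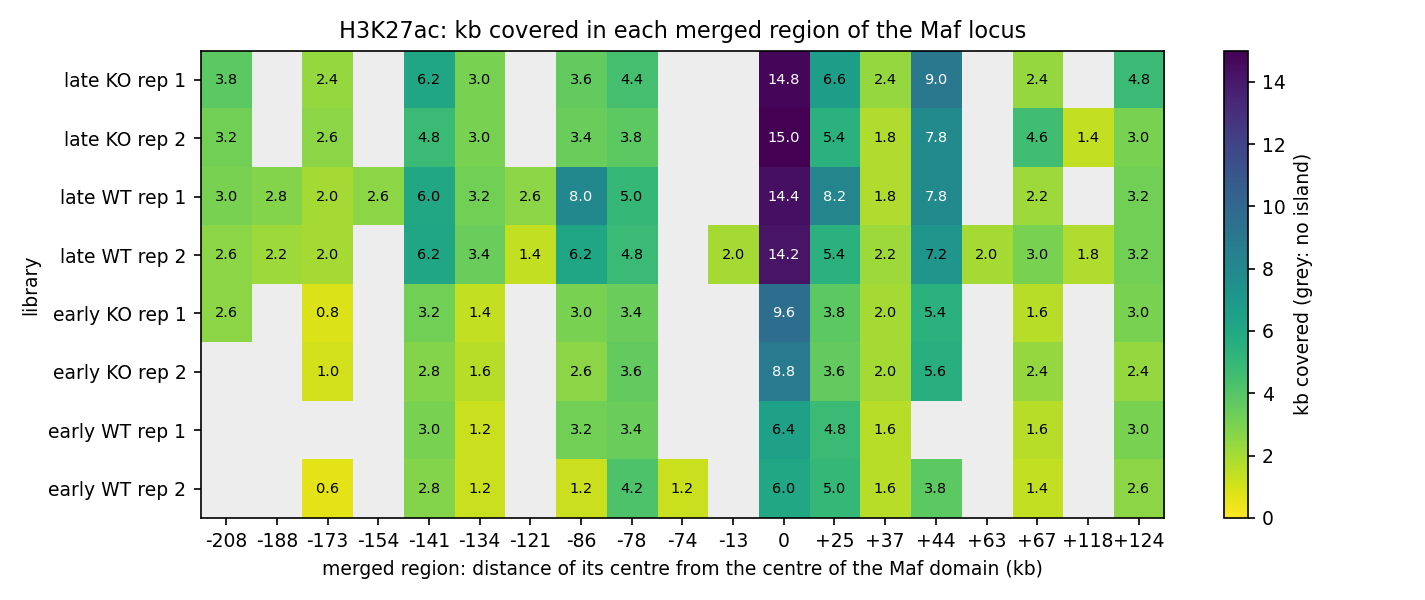
H3K27ac cover in kb of the 19 merged regions of the Maf locus (columns, by distance of the region's centre from the centre of the Maf domain in kb) in the 8 libraries (rows), with grey where a list holds no island. The Maf domain, at 0, has 14.2 to 15.0 kb in late cells, and the columns at -188.0 and -120.7 are filled in both late WT libraries alone.

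The interaction asks whether KO minus WT differed between late and early cells. Over bins in at least 3 lists 0 of 15 were called (limma, adjusted p under 0.05), where 1.15% had a higher and 3.17% a lower late difference, and at an unadjusted p under 0.05 1 bin was lower. With the filter of 2 lists 4 of 20 bins had a lower late difference, where 6.18% of all bins had a lower and 3.95% a higher one. Of these, 3 passed the filter through late WT alone, so their calls are no test. The other, from 118220001 in the Maf domain, had 9.6 and 10 kb in late KO and 9.6 kb in both late WT libraries, so the 10 kb of the bin were nearly full. Its interaction was -0.92 ± 0.21 (SE, limma adjusted p = 0.0497), and the call was lost without any of the libraries but early KO replicate 2 (adjusted p between 0.0526 and 0.147 for the other 7). It was also lost over bins in at least 3 lists (0.087), with a replicate block (0.091), with a pseudocount of 2 kb (0.0598), with no filter (0.0567) and with islands within 1 kb merged (0.0514, limma adjusted p each).

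Averaged over both stages, 1 bin rose and 0 fell in KO among the 15 bins in at least 3 lists (limma, adjusted p under 0.05), where 8.37% of such bins rose and 4.17% fell. With the filter of 2 lists 1 was called higher and 3 lower, where 10.8% of all bins rose and 7.39% fell. The 3 were again bins that passed through late WT alone, so their calls are no test. The 1 that rose was the lower part of the Maf domain, by a log2 of 0.45 ± 0.11 (SE, limma adjusted p = 0.0353, and 0.0453 over bins in at least 3 lists). It passed only without early KO replicate 2 or late KO replicate 1 when single libraries were left out (adjusted p between 0.0559 and 0.0819 for the other 6), and its adjusted p was 0.061 with a replicate block. The late KO and late WT libraries had nearly the same cover in that bin.

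With time, H3K27ac cover in WT rose in the Maf domain and in bins on both sides of it. In late WT against early WT 5 of the 15 bins in at least 3 lists rose and 0 fell (limma, adjusted p under 0.05), where 9.01% of such bins rose and 5.1% fell. With the filter of 2 lists 8 of 20 were called higher, where 9.54% of all bins rose and 6.77% fell. Of the 8, 3 are bins that passed through late WT alone, so this count is no test and is given as a description. Mean cover in kb was higher in late WT in 14 of the 15 bins and lower in 1, and the median log2 change was 1.11, against 0.04 over all such bins. The bin of the lower Maf domain, from 118220001, was covered over 9.6 kb in both late WT libraries and over 2.6 and 2.2 kb in early WT, a log2 change of 1.85 ± 0.15 (SE, limma adjusted p = 0.000545). On the lower side the bin from 118080001 held 6.0 and 6.2 kb in late WT and 3.0 and 2.8 kb in early WT (log2 change 1.0 ± 0.13, SE, limma adjusted p = 0.00297). The bin from 118090001 held 3.2 and 3.4 kb in late WT and 1.2 kb in both early WT libraries (1.2 ± 0.13, SE, limma adjusted p = 0.00178). These kept the call without any single library.

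The other 2 of the 5 bins lost the call under several alternatives. The bin from 118050001 had 2.0 kb in both late WT libraries, and 0 and 0.6 kb in early WT (limma adjusted p = 0.0235). It lost the call without late WT replicate 1 or 2 (adjusted p = 0.102 and 0.101) or late KO replicate 1 or 2 (0.0561 for each, limma), and with quantile normalization (limma adjusted p = 0.0783). The bin from 118260001, on the higher side, had 4.6 and 5.8 kb in late WT and 1.6 and 3.0 kb in early WT (limma adjusted p = 0.0425), and passed only without early WT replicate 2 when libraries were left out (up to 0.18 for the other 7). It also lost the call with no centring (limma adjusted p = 0.0669), quantile normalization (0.0514) and the upper 50% of islands by score (0.317). Without late WT replicate 1 or 2 the count of rising bins, with the filter of 2 lists, was 4.

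In KO cells 3 of these bins and 1 other passed. In late KO against early KO 4 of the 20 bins rose and 0 fell (limma, adjusted p under 0.05), where 4.65% of all bins rose and 4.95% fell. The same count was 4 of 15 over bins in at least 3 lists, where 3.8% rose and 3.18% fell. Mean cover in kb was higher in late KO in all 15 of these bins, and the median log2 change was 0.68, against 0.04 over all such bins. The bin from 118220001 held 9.6 and 10 kb in late KO and 5.6 and 4.6 kb in early KO (log2 change 0.93 ± 0.15, SE, limma adjusted p = 0.0127). On the lower side the bin from 118080001 held 6.2 and 4.8 kb in late KO and 3.2 and 2.8 kb in early KO (limma adjusted p = 0.0112). The bin from 118090001 held 3.0 kb in both late KO libraries and 1.4 and 1.6 kb in early KO (limma adjusted p = 0.0118). The bin from 118250001, on the higher side, held 6.4 and 5.2 kb in late KO and 3.8 and 3.6 kb in early KO (limma adjusted p = 0.0238).

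These KO calls were sensitive to single libraries. The count was 0 without early KO replicate 2, and 1 without late KO replicate 1 or late KO replicate 2. The bin from 118220001 lost the call without early KO replicate 2 or late KO replicate 2 (limma adjusted p = 0.0657 and 0.0691), and that from 118080001 without early KO replicate 2 or late KO replicate 1 (0.0702 and 0.0639). The bin from 118090001 lost it without either early KO library or either late KO library (0.0521 to 0.0888), and that from 118250001 in 5 of 8 cases (0.0763 to 0.144) and with no centring, quantile normalization or the upper 50% of islands by score (0.0875, 0.0509 and 0.0739). The number of calls in KO and in WT is no test of their difference, which is the interaction given above.

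**Figure D4:**
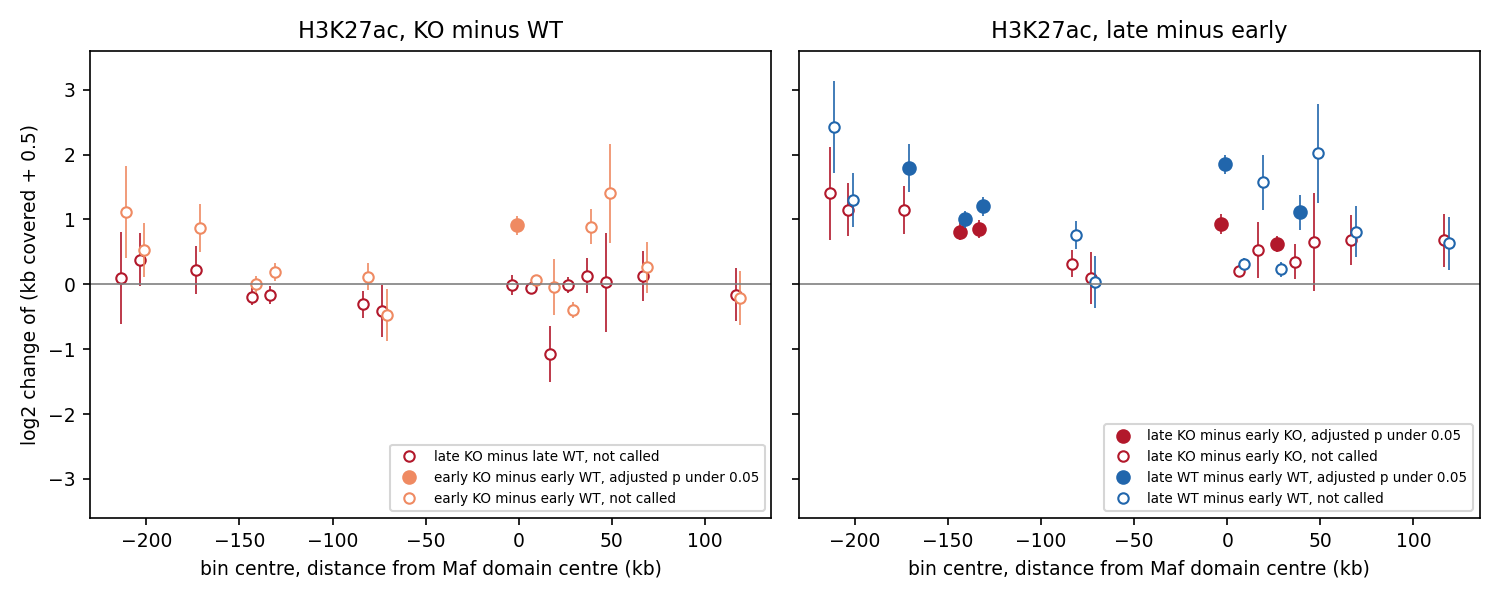
H3K27ac log2 change of (kb + 0.5) in the 15 bins covered in at least 3 lists, by distance of the bin's centre from the centre of the Maf domain in kb, for KO minus WT (left) and late minus early (right), with the SE as bars; filled points have an adjusted p under 0.05. The 1 filled point on the left is the lower part of the Maf domain in early cells, at 0.91, and on the right 4 points are filled for KO and 5 for WT.

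The values of the other regions named are as follows. The region from 118146601 to 118152000 was covered over 4.4 and 3.8 kb in the late KO libraries, 5.0 and 4.8 kb in the late WT libraries, 3.4 and 3.6 kb in early KO and 3.4 and 4.2 kb in early WT. That from 118262601 to 118265000 held 2.4 and 1.8 kb in the late KO libraries, 1.8 and 2.2 kb in the late WT libraries, 2.0 kb in both early KO libraries and 1.6 kb in both early WT libraries. The region from 118292201 to 118296800 held 2.4 and 4.6 kb in the late KO libraries, 2.2 and 3.0 kb in the late WT libraries, 1.6 and 2.4 kb in early KO and 1.6 and 1.4 kb in early WT. At the higher edge of the locus a region from 118348401 ran past the limit to 118353200, with 2.4 to 4.8 kb in every list. The bins of these regions gave no call in any of the 6 comparisons, except that the bin from 118260001, described above, holds the second of them.

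DNase islands of the locus merged into 19 regions as well, of 0.6 to 7.8 kb, and 7 of them were found in all 8 lists. Over the genome 27.3% of 47976 merged DNase regions were found in all 8. The 7 sites lie at 118092001 to 118093000 and 118141201 to 118142600 on the lower side, at 118226601 to 118234400 in the Maf domain, and at 118249801, 118265801, 118294601 and 118348001 (first bases) on the higher side. The widest was that of the Maf domain. It was covered over 2.6 and 2.8 kb in late KO and over 4.8 and 7.8 kb in late WT, against 3.0 and 4.0 kb in early KO and 3.0 and 4.2 kb in early WT. The late WT libraries were the highest at this site and the late KO libraries the lowest, and the difference between late KO and late WT did not pass the test (log2 change -0.70 ± 0.25, SE, limma adjusted p = 0.217, merged regions). In that fit 0 of the 14 regions tested in the locus were called, where 1.77% of 39472 fell and 0.38% rose.

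Total DNase cover of the locus was lower in all KO libraries than in any WT library, a difference that did not pass after adjustment, and the KO lists were shorter on average. Late KO libraries covered 10.6 and 7.8 kb and late WT libraries 17.4 and 29.0 kb, while early KO libraries covered 12.6 and 16 kb and early WT libraries 16.4 and 23.8 kb. The means were 11.8 ± 3.45 kb in KO and 21.6 ± 5.9 kb in WT (SD, n = 4 each, exact two-sided permutation p = 0.0286, adjusted over 8 tests 0.0762). As a share of each list's covered length the locus had 0.0358 ± 0.00557% in KO and 0.0413 ± 0.00949% in WT (SD, n = 4 each, exact two-sided permutation p = 0.4). The deposited lists covered 26.0 ± 0.2 Mb in late KO and 48.6 ± 5.4 Mb in late WT, and 40.3 ± 12.7 Mb in early KO and 56.6 ± 14.5 Mb in early WT (SD, n = 2 each). With lists cut to equal length KO minus WT was -4.95 kb (exact permutation p = 0.0571), against -9.9 kb with the full lists. Beyond these comparisons, the part of list length in the lower cover was not tested. With the locus as a window, centred on each list, late KO minus late WT was -0.37 ± 0.22 (SE, limma adjusted p = 0.349) and early KO minus early WT 0.02 ± 0.22 (SE, limma adjusted p = 0.987), where 2.96% and 0% of 4534 windows fell.

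No DNase bin of the locus was called in any of the 6 comparisons, among 14 tested of 17 with an island (limma, adjusted p under 0.05). Over all 37586 bins 0.343% rose and 1.81% fell in late KO against late WT, and 0.54% rose and 0.689% fell in early KO against early WT. Averaged over stages 0.652% rose and 0.894% fell in KO, and 0% passed the interaction in either direction. With time 0.197% rose and 2.25% fell in KO, and 0.593% rose and 2.12% fell in WT. At an unadjusted p under 0.05, 0 bins of the locus were higher and 2 lower in late KO, where 2.46% and 14.3% of all bins were, and 1 was higher and 1 lower in early KO, where 3.32% and 9.05% were. With time 0 bins were higher and 1 lower in KO at that level, where 1.89% and 12.6% of all bins were, and 2 were higher and 0 lower in WT, where 3.53% and 10% were. Averaged over stages 0 were higher and 1 lower in KO, against 4.31% and 14.9% of all bins, and in the interaction 0 had a higher and 2 a lower late difference, against 5.49% and 7.87%.

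A DNase site with an opposite order of KO and WT in early and late cells lies on the lower side at 118084201 to 118086000, within an H3K27ac region found in all 8 lists. It was listed at 0 in both late KO libraries and covered 1.0 kb in both late WT libraries, whereas it covered 1.8 and 0.8 kb in early KO and was listed at 0 in both early WT libraries. Its 10-kb bin gave adjusted p = 0.0693 for early KO against early WT, 0.216 for late KO against late WT and 0.109 for the interaction (limma), so none passed. In the merged-region fit the site had adjusted p = 0.0556, 0.216 and 0.0869 in the same order (limma), and none passed there either. The H3K27ac region around it, from 118083001 to 118089200, had a different order, with 6.2 and 4.8 kb in the late KO libraries, 6.0 and 6.2 kb in the late WT libraries, 3.2 and 2.8 kb in early KO and 3.0 and 2.8 kb in early WT.

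Another DNase site had less cover in KO in both stages and did not pass the test. The site from 118269201 to 118273400, on the higher side, was covered over 1.6 and 0 kb in the late KO libraries and over 2.0 and 3.4 kb in the late WT libraries. In early KO it was listed at 0 in both libraries, and early WT had 1.8 and 3.4 kb. The bin from 118270001, which holds the upper part of the site, did not pass in early KO against early WT (limma adjusted p = 0.292) or averaged over stages (limma adjusted p = 0.163). In the merged-region fit the whole site had log2 changes of -2.33 ± 0.67 in early KO (SE, limma adjusted p = 0.137) and -1.79 ± 0.48 averaged over stages (SE, limma adjusted p = 0.107). H3K27ac in the region that contains this site covered 5.4 and 5.6 kb in early KO and 0 and 3.8 kb in early WT.

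**Figure D5:**
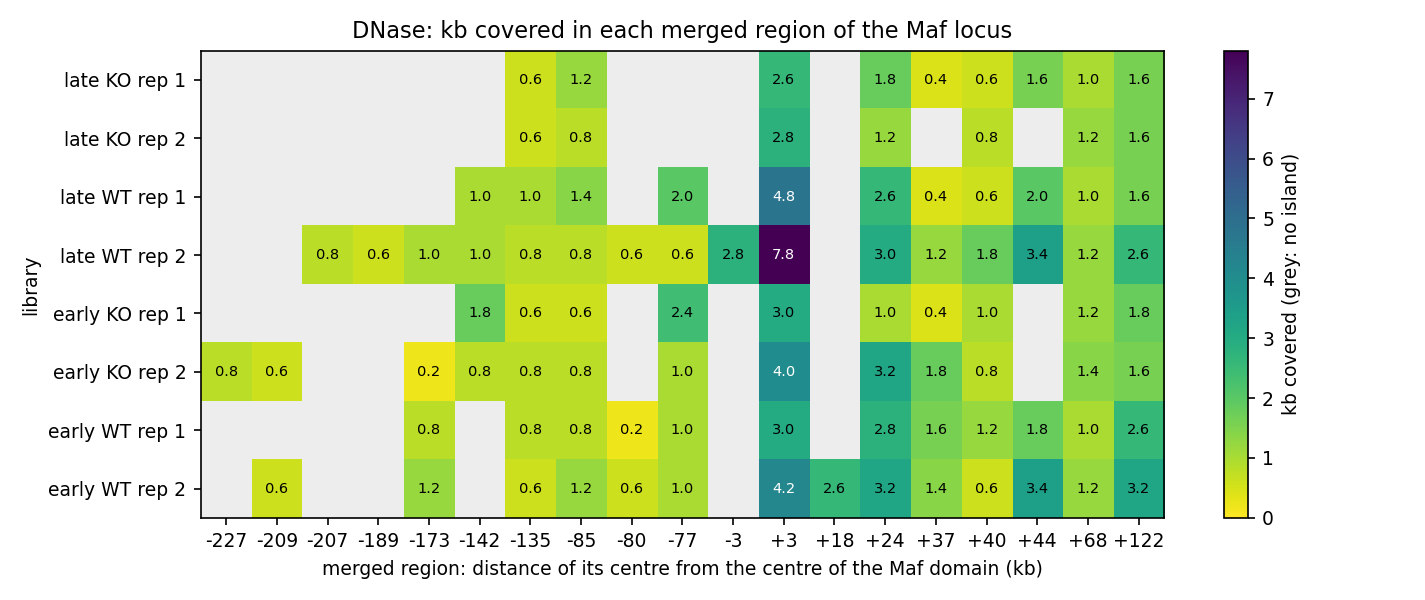
DNase cover in kb of the 19 merged DNase regions of the Maf locus (columns, by distance of the region's centre from the centre of the Maf domain in kb) in the 8 libraries (rows), with grey where a list holds no island. Late KO replicate 2 holds the 7 sites found in all 8 lists and no other, and the column at -142.1 is filled in late WT and early KO only.

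Open sites of the locus lay wholly inside acetylated chromatin in late cells, and less so in early WT, where the share over the genome was also the lowest. Of the 19 DNase regions 17 overlapped an H3K27ac region of the locus. Conversely, all 9 H3K27ac regions found in 8 lists and all 3 found in 5 to 7 lists held a DNase region, against 1 of the 7 found in 1 or 2 lists. The same counts of merged regions were not made over the genome, so these describe the locus and are not shown to be particular to it. Within groups, 100% of the DNase length of each late KO and each late WT library lay in H3K27ac islands of the same group, where over the genome it was 90.5% and 90.0% in late KO and 86.5% and 82.5% in late WT. In early cells the share was 98.6% and 95.5% in early KO and 87.5% and 72.8% in early WT, against 90.0% and 82.7% in early KO and 78.8% and 73.5% in early WT over the genome. Early WT replicate 2, with the lowest share, had the longest list at 66.8 Mb, and the part of list length in these shares was not tested. H3K27ac cover of the locus was also wider in late lists, with a mean of 64.5 kb against 32.6 kb in early ones. The part of that cover in the shares was not tested.

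Of the 2 merged regions found in both late WT lists and in no other list, the one from 118105001 to 118108000 held no DNase island in any list. The other, from 118037801 to 118040600, held a DNase island of 0.6 kb in late WT replicate 2 and none elsewhere. How common regions of late WT alone are over the genome was not determined. The 9 regions acetylated in all 8 lists each overlapped a DNase region.

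The 350-kb windows whose H3K27ac cover was most like that of the Maf locus over the 8 libraries were found by Pearson's correlation of centred log2 cover, among 2648 windows with a mean of at least 10 kb. They lay on chromosome 7 at 148100001 to 148450000 (r = 0.990), chromosome 6 at 50800001 to 51150000 (r = 0.989) and chromosome 14 at 63400001 to 63750000 (r = 0.988, each over 8 libraries). In the first, late KO libraries averaged 151.1 kb and late WT libraries 154.3 kb, against 100.3 kb in early KO and 83.5 kb in early WT libraries. Like the Maf locus it was lowest in early WT and highest in late WT, which its choice by correlation makes likely. In all, 149 windows had a correlation above 0.9, so many windows had a similar course.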

How the data were processed

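H3K27ac ChIP-seq and scDNase-seq were each measured in 8 libraries, 2 for each of 4 groups. Per the submitters' processing notes, CASAVA 2.18, Bowtie2 and SICER 1.1 were used with build mm9. The authors deposited 1 island list per library, with start, end and a score per island; the score is the caller's own value and was used only to rank islands within a list. No read counts were used, so depth and counting error are unknown. Island ends fall on a grid of 200 bp, and other settings are not given in the sources used here.

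The kb covered by islands was computed per 10-kb bin, per 350-kb window and, added after the data were seen, per merged region. Features covered in at least 2 of 8 lists were taken as log2(kb + 0.5), centred on the median of features covered in all 8, and fitted over the genome with limma 3.58.1 (R 4.3.3, 4 groups, trended prior), with Benjamini-Hochberg adjustment and a threshold of 0.05. Bins were also fitted with a filter of 3 lists, added after the data were seen, since with 2 a bin can pass through 1 group alone. Locus totals were clipped at its limits, merged regions were not. Totals were compared by exact permutation tests (scipy 1.17.1). The fit was tested on simulated data. Groups came from the titles and genotype labels. Every called bin of the locus, the 8 regions with the longest mean cover and the 3 most similar windows were named by rule; other regions named beyond it were chosen after their values were seen. The locus, rules and tests were chosen with earlier results of these data known. Same-numbered libraries did not deviate together (correlations -0.0381 to 0.0516 for H3K27ac, -0.0097 to 0.0817 for DNase), so replicates were not paired. Alternatives were other scalings, a pseudocount of 2 kb, the upper 50% of islands by score, omission of the filter, merging within 1 kb, bins shifted by 5 kb, a replicate block and each library left out. A search of the Maf promoter and a list of genes of the Maf network were planned and not used here.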

Additional observations from a re-analysis of the deposited data

Results flagged for a closer look

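Of the 20 H3K27ac bins of the Maf locus covered in at least 2 lists, 4 had a lower late KO-minus-WT difference by the interaction fit (limma, adjusted p under 0.05, log2(kb + 0.5) scale). Over all 39126 bins 6.18% had a lower and 3.95% a higher one. With bins in at least 3 lists 0 of 15 were called, where 3.17% of all such bins had a lower late difference. Among the 4, the values were -2.38 in the bin from 118030001, -2.28 in that from 118100001 and -2.54 in that from 118130001. These 3 bins held islands in both late WT libraries and in no other, so they passed the filter only through the group in which they are high, and their values are set by that and by the 0.5 kb added. They are given as a description, not as a test. In the bin from 118220001, in the Maf domain, the value was -0.92 (adjusted p = 0.0497), with both late groups near the 10 kb that a bin can hold. That call was lost with 7 of the 8 libraries left out in turn and, among other settings, with a replicate block (limma adjusted p = 0.091) and over bins in at least 3 lists (limma adjusted p = 0.087).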

How the results depend on the processing

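For the called bins, 182 values under other settings kept the call and 13 lost it. With single libraries left out 130 kept it and 38 lost it. None of these reversed. The counts include the bins from 118030001, 118100001 and 118130001, whose difference the filter fixed. They are therefore no measure of how well the other calls hold. The counts of called bins below stand without the share of all bins called under the same setting. Only for the filter of 3 lists are those shares given, above. The other counts are a description and are not shown to be particular to the locus. The bins found in late WT alone gave no value without either late WT library or over bins in at least 3 lists, an alternative chosen after seeing the data, where H3K27ac gave 0 lower in late KO, 0 lower on average, 0 lower in the interaction and 5 rising with time in WT. Same-numbered libraries share only a number, and with a replicate block the count of H3K27ac bins higher in early KO was 2, as with lists of equal length or islands within 1 kb merged. With equal lengths the counts of rising H3K27ac bins were 13 with time in WT, 7 with time in KO and 2 averaged over stages. The 13 include bins held by late WT alone. DNase gave 2 rising with time in WT and 1 in KO. With the upper 50% by score, each assay had 10 regions. H3K27ac gave 1 lower bin in late KO, 1 lower on average, 2 lower in the interaction and 5 rising in WT. The bin lower in late KO and on average was that from 118130001, held by late WT alone. It also counts in the interaction and in WT, and its calls are no test. DNase then gave 3 lower in late KO, 1 lower on average, and with time 2 rising in WT and 1 falling in KO. In the main fit 1.81% of all DNase bins fell and 0.343% rose in late KO, and the late KO lists were the shortest. The 3 lower bins are therefore not shown to be particular to the locus. With no centring, DNase gave 1 higher in early KO, 1 lower in late KO, 1 lower in the interaction and 1 falling with time in KO. Merged regions gave 2 lower in the interaction, from 118037801 and 118105001, both held by late WT alone, so this count is no test. DNase cover in KO minus WT was -4.95 kb (exact permutation p = 0.0571) with equal lengths and -6.75 kb (p = 0.0857, exact permutation) with the upper 50%, and late minus early was 0.85 kb with equal lengths, a reversal. The H3K27ac window in early KO was 0.36 with no centring and 0.34 with quantile normalization, both called, and -0.05 with the upper 50%. The average was 0.06 and 0.03 with no centring and quantile normalization. The interaction was called at -0.59 (no centring), -0.62 (quantile), -0.53 (pseudocount 2 kb) and -0.60 (merging within 1 kb). The DNase window in early KO was -0.46, -0.01 and -0.07 with no centring, a 2 kb pseudocount and 1 kb merging. With no centring late KO minus late WT was -1.26 and the average -0.86, both called, where the median window shifted by -0.83 and -0.66. DNase late KO minus early KO was -0.62, -0.08, -0.28, -0.35 and -0.02 with no centring, quantile, equal lengths, upper 50% and 2 kb pseudocount. The cause of these changes was not tested.

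With 1 library left out, H3K27ac cover in KO minus WT ran from -8.7 to 6.17 kb and late minus early from 29.65 to 33.98 kb, where p cannot fall under 0.0571 (exact permutation). The shares of a list ran from -0.0101 to 0.0049 and from 0.0285 to 0.0338 percentage points. DNase cover ran from -11.65 to -7.45 kb in KO minus WT and from -5.27 to 1.8 kb in late minus early. H3K27ac bins ran from 1 to 4 higher and 0 to 1 lower in early KO, 0 to 3 lower in late KO, 0 to 3 higher and 0 to 4 lower on average, 0 to 5 lower in the interaction, and with time 4 to 9 rising in WT and 0 to 5 in KO. The lower bins in late KO, on average and in the interaction include those held by late WT alone. Shares of all bins called with a library left out are not given here, so these ranges are a description. DNase bins rising in WT ran from 0 to 1. The H3K27ac window ran from 0.12 to 0.36 in early KO, -0.09 to 0.03 on average and -0.67 to -0.41 in the interaction, and the DNase window from -0.17 to 0.21 in early KO and -0.17 to 0.20 in late KO minus early KO.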
